A study of Mus musculus with 12 samples.

Results

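The mRNAs of the mitochondrial fission and fusion machinery were examined in mouse hearts that had lost Sdhaf4, an assembly factor of succinate dehydrogenase, the complex II of the respiratory chain. The 8 genes were chosen by name, Dnm1l, Fis1, Mff, Mief1 and Mief2 for fission and Mfn1, Mfn2 and Opa1 for fusion, and each matched 1 of the 43686 rows of the count table. Poly(A) RNA of the ventricular wall had been sequenced from 6 WT and 6 KO mice, male by the study's account. WT hearts were Sdhaf4 fl/fl littermates without Cre, and KO hearts were Sdhaf4 fl/fl with Ckmm-Cre, so both groups carried the floxed alleles and only the KO group carried the transgene. Its muscle creatine kinase promoter drives Cre in cardiac and in skeletal muscle, so the alleles of other heart cells are not targeted. No group with Cre alone was among the samples. The labels describe the KO animals as Sdhaf4-/- and give C57BL/6 mice of 2 months, whereas the study's text gives a younger age in weeks and its reporting summary, the source of the sex, a pair of ages in weeks of which the older fits the label.

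Mitochondria form a network that divides and joins. Division is carried out by DRP1, the dynamin-related GTPase encoded by Dnm1l, which is recruited from the cytosol by outer membrane proteins (FIS1, MFF and the MID proteins encoded by Mief1 and Mief2) and tightens around the organelle. Joining of the outer membranes is carried out by the mitofusins MFN1 and MFN2, which tether neighbouring mitochondria, while OPA1 joins the inner membranes and holds the cristae in shape. In cardiomyocytes, whose mitochondria are packed between the myofibrils, MFN2 is also known for tethering mitochondria to the sarcoplasmic reticulum. Much of the control of these proteins is by phosphorylation, proteolysis and ubiquitination, which mRNA counts do not read.

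The target was checked first. Sdhaf4 stood at 25.2 ± 5.80 CPM (read counts scaled to the library's depth, here by edgeR's TMM method; SD, n = 6) in WT and at 2.40 ± 0.170 (SD, n = 6) in KO hearts. The log2 fold change was -3.39 and the groups did not overlap. WT-6, at 14.29 CPM, was the lowest WT library, and the other 5 were at 24.06 to 30.29 CPM. Between 23747014 and 27159228 reads were counted in the WT libraries and between 26542930 and 31393393 in the KO libraries. The 30 pairs of replicates differed by more than sampling noise, with a chi-square per degree of freedom of 6.99 to 48.6. KO-3 lay nearest to WT: over 797 strongly changed rows its median position was 0.165 of the way from the other KO libraries to WT, against -0.102 to 0.0626 for the other 11 libraries, of which WT-6 was the WT library nearest to KO. Leaving out KO-3 and WT-6 together changed no member's call. All 9 cardiomyocyte markers in the table were abundant in every library, from 876.7 CPM upward, whereas the atrial markers Myl7 and Sln, the skeletal muscle markers Myh1 and Myh4 and the adipocyte markers Adipoq, Plin1 and Cidec were at 0 in 3 to 9 libraries. The atrial marker Myl4 was present in every library, at 1.531 to 4.604 CPM, and was higher in KO (log2 fold change 0.72, adjusted p 0.00515), and the summed atrial level was 1.489 to 3.069 CPM in WT and 3.028 to 4.498 CPM in KO. Of the skeletal muscle markers, Tnni2 (-2.19, adjusted p 8.30e-06) and Mylpf (-1.81, adjusted p 0.00294) were lower in KO without overlap, and Tnnt3 did not pass (0.66). The summed skeletal muscle level was 2.582 to 11.11 CPM in WT and 1.158 to 4.738 CPM in KO. All 6 fibroblast markers passed the test in the higher direction, with a summed level of 1151 to 1309 CPM in WT and 1890 to 3046 CPM in KO. Of the cardiomyocyte markers, 5 were lower, 1 higher and 3 did not pass. Their summed level was 54350 to 60020 CPM in WT and 42120 to 59140 CPM in KO. Erythroid Hba-a1 ranged from 278.7 to 1215 CPM and did not pass the test, and neither did the 2 lymphocyte markers tested. Of the other marker lists, 3 of 5 endothelial genes were higher, 1 of 5 macrophage genes was higher and 2 were lower, and 2 of 4 smooth muscle and pericyte genes were higher. Among all rows tested, 25.6% were higher and 25.5% lower. In bulk tissue, fewer cells of a type and less RNA per cell cannot be told apart, and the part of cell composition in the results below was not tested.

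RefSeq start windows of the 4 members that passed the test are shown here, since these genes moved in opposite directions. Which start is used in these hearts was not measured. RefSeq (GRCm38.p6, the reference mouse assembly, which is not the assembly of the count table) held 13 start windows for the 8 members, each with 250 bases before and 50 after the start. Both strands were searched for AAGGTCA (the core site of the estrogen-related receptors), TCAAGGTCA (their response element, which contains that core), GCGCATGC (part of the NRF1 motif), ACGTG (the core of the hypoxia response element) and TGATGNAA (the CARE element bound by ATF4). Capitals mark matches to any of these, and of the 2 RefSeq starts of Dnm1l and the 3 of Mfn2 1 is printed, 5′ to 3′. For Dnm1l the printed window belongs to the downstream start. The window of its upstream start (chr16:16358982-16359281, minus strand) is not printed and held no match.
Dnm1l (chr16:16358526-16358825, minus strand): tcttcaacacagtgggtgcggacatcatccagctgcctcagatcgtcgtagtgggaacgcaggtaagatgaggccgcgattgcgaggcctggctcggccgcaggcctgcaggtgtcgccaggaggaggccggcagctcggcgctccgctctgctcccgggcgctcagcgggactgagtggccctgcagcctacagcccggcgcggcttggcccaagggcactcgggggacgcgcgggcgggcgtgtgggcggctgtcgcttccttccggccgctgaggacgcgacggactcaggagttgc
Mief2 (chr11:60728148-60728447, plus strand): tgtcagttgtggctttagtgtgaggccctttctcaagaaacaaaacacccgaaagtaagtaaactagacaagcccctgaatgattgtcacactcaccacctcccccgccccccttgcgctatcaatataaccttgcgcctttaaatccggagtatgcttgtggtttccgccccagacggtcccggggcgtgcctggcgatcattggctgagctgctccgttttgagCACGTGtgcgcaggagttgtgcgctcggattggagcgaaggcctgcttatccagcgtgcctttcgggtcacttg
Mfn1 (chr3:32529232-32529531, plus strand): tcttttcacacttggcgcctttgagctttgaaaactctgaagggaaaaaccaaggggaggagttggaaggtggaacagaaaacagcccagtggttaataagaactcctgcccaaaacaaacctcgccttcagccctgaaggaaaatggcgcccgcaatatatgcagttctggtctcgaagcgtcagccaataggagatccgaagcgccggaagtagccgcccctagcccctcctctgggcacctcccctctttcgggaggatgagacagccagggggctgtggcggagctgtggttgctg
Mfn2 (chr4:147904649-147904948, minus strand): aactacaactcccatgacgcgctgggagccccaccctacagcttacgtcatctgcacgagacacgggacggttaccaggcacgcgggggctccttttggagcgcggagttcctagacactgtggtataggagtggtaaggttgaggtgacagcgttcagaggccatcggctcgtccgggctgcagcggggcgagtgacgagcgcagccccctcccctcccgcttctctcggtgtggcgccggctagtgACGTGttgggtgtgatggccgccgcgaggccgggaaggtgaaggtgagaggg
ACGTG was found before the start of Mief2, where CACGTG reads the same on both strands, and in 2 overlapping windows of Mfn2. In the printed window of Mfn2 it begins 2 bases before the start and runs across it. In the other it begins 39 bases before the start. Of the 32544 distinct windows of all genes, 19.7% held this core. Opa1 held GCGCATGC on both strands, overlapping each other within GCGCATGCGC, and 2.73% of all windows held that motif. AAGGTCA (4.71% of all windows), TCAAGGTCA (0.412%) and TGATGNAA (3.91%) were in none of the 13 windows. These are matches of letters, and no measurement of binding was among the data.

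Of the 8 members, 2 were higher in KO than in WT hearts, Dnm1l and Mfn2, 2 were lower, Mief2 and Mfn1, and 4 did not pass the test (edgeR's quasi-likelihood test, adjusted p under 0.05 over 17155 rows). With cardiomyocyte-marker scaling, described below, 5 were higher (Dnm1l, Mfn2, Fis1, Opa1 and Mff) and none was lower, where 48.0% of all rows were higher and 9.87% lower. With TMM neither set moved one way: of the 5 fission genes 1 was higher, 1 lower and 3 did not pass, and of the 3 fusion genes 1 was higher, 1 lower and 1 did not pass. These counts stand against a background in which 51.1% of all rows were called, 25.6% higher and 25.5% lower, so that 4 of 8 is near the share of all rows. The changes were also of ordinary size, since the median absolute log2 fold change of all rows was 0.299 and between 40.8% (for Mief2) and 99.2% (for Opa1) of the rows had a larger one. The libraries of the groups did not overlap for Dnm1l (KO higher, as for 14.9% of all rows) and Mfn1 (KO lower, as for 15.2%). At an adjusted p under 0.005 with a log2 fold change beyond 1, which 10.2% of the rows met, no member was called. All 8 members passed the filter on low counts, with 523 reads or more in each library.

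**Figure D1:**
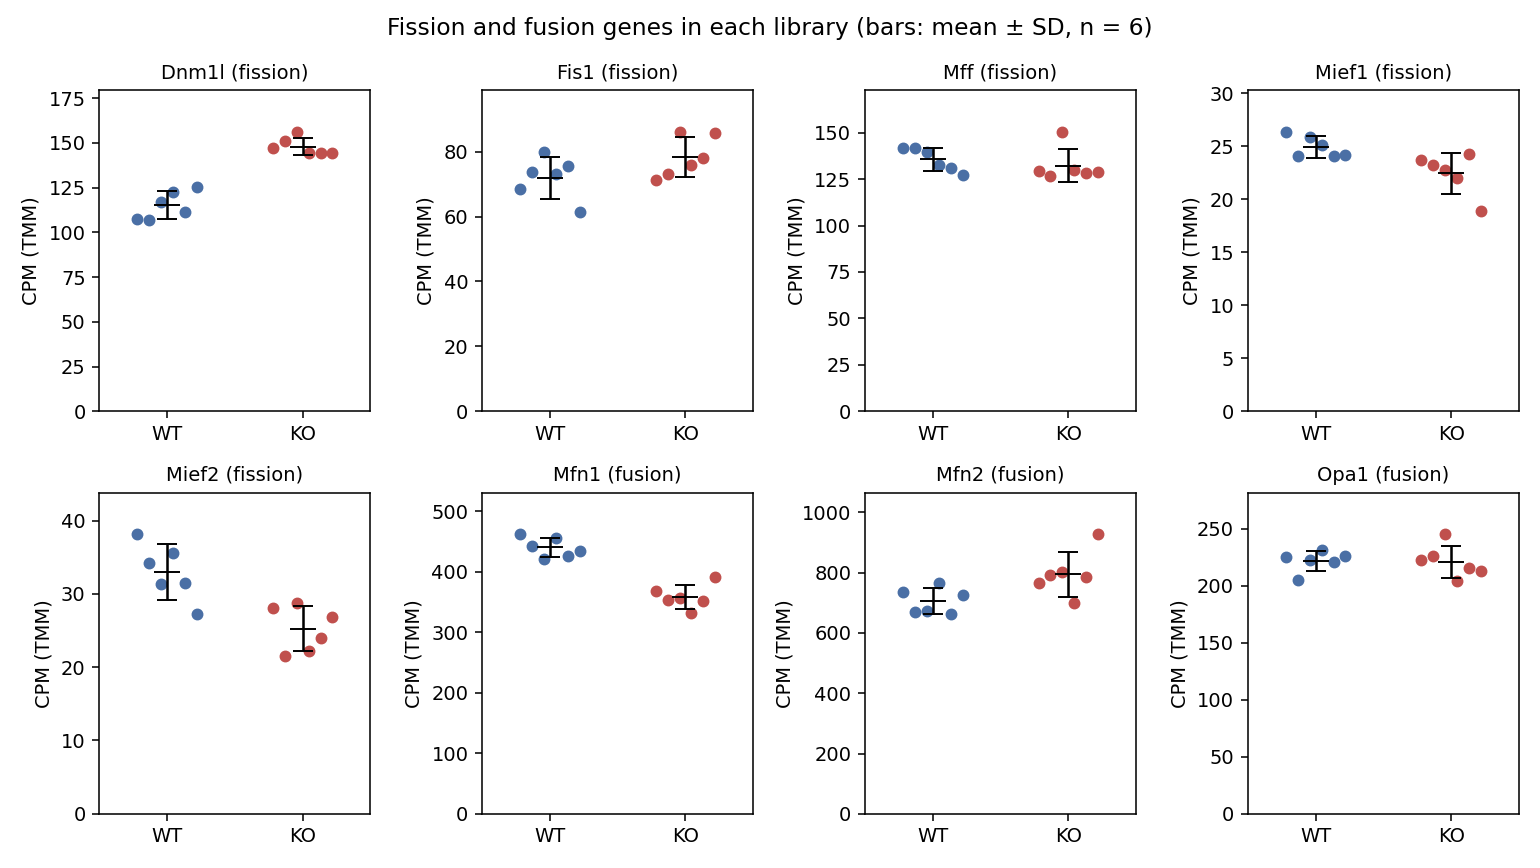
Level of each fission and fusion gene in CPM (scaled by edgeR's TMM method; vertical axes start at 0) in the 6 WT (blue) and 6 KO (red) libraries, with bars for the mean ± SD. Dnm1l is the gene whose KO libraries all lie above WT and Mfn1 the one whose KO libraries all lie below, although with scaling on cardiomyocyte markers the Mfn1 difference is 0.02 and no longer below 0.

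Dnm1l encodes DRP1, the GTPase that constricts the mitochondrion. It lies on chromosome 16 at 13585054 to 13634730 of the C57BL/6NJ assembly (minus strand, MGP_C57BL6NJ_G0022972), the assembly of all gene coordinates given here. Its level in WT-1 to WT-6 was 107.7, 106.7, 117.0, 122.5, 111.1 and 125.3 CPM, and in KO-1 to KO-6 it was 147.1, 150.8, 156.1, 144.1, 144.2 and 144.5 CPM. The lowest KO library stood above the highest WT library. The mean was 115.1 ± 7.79 CPM in WT and 147.8 ± 4.81 CPM in KO (SD, n = 6 each). This was 1.285-fold higher (95% interval 1.195 to 1.381), with a log2 fold change of 0.36 ± 0.050 (SE) and an adjusted p of 1.18e-05. This call was kept under all 24 alternative settings, over which the log2 fold change was 0.34 to 0.68.

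Among the receptors that recruit DRP1, Mief2 changed. It encodes MID49, lies on chromosome 11 at 62563877 to 62568430 (plus strand, MGP_C57BL6NJ_G0018815) and shares 64 bases of its span with 1 other row, whose counts were 0.16% of its own. Mief2 was at 38.10, 34.15, 31.32, 35.62, 31.52 and 27.25 CPM in WT-1 to WT-6 and at 28.11, 21.52, 28.81, 22.27, 23.95 and 26.78 CPM in KO-1 to KO-6. The groups overlapped through WT-6, which was below KO-1 and KO-3. From 33.0 ± 3.80 CPM in WT it fell to 25.2 ± 3.09 CPM in KO (SD, n = 6 each), by 0.39 ± 0.089 on the log2 scale (SE, adjusted p 0.00157). That is 0.7655 of the WT level, with a 95% interval of 0.672 to 0.8719. With scaling on cardiomyocyte markers, described below, the difference was -0.07 with an adjusted p of 0.585 and was no longer called.

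The other MID gene, Mief1, which encodes MID51 (chromosome 15, 83744606 to 83764060, plus strand, MGP_C57BL6NJ_G0022506), did not pass. WT-1 to WT-6 were at 26.34, 24.06, 25.85, 25.12, 24.03 and 24.15 CPM, and KO-1 to KO-6 at 23.74, 23.20, 22.71, 21.99, 24.28 and 18.85 CPM. KO-6 was the lowest of all 12, and KO-5 lay within the WT range. The log2 difference was -0.15 ± 0.065 (SE, 95% interval -0.29 to -0.01, adjusted p 0.0634). It passed when KO-5 was left out (-0.17, adjusted p 0.0490), with upper quartile scaling (-0.16, adjusted p 0.0470) or without the unannotated loci (-0.16, adjusted p 0.0499), while with cardiomyocyte-marker scaling it was 0.18 (adjusted p 0.155). A stretch of 213 bases of the Mief1 mRNA is shared at 100% identity with another gene of the GENCODE annotation, AC140267.1. Where that gene lies was not examined, so whether it is a separate copy and whether it affects the Mief1 counts are not known. No other counted row overlapped the span of Mief1. No other member shared such a stretch among the transcripts searched.

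Mff and Fis1, which encode tail-anchored receptors of the outer membrane, did not pass either. Mff (chromosome 1, 86872469 to 86899970, plus strand, MGP_C57BL6NJ_G0016609) was at 141.7, 142.0, 139.4, 132.8, 131.2 and 127.2 CPM in WT-1 to WT-6 and at 129.5, 126.8, 150.4, 130.0, 128.4 and 128.6 CPM in KO-1 to KO-6. Apart from KO-3, which was the highest of all 12, the KO libraries lay within or just under the lower part of the WT range. The log2 difference of Mff was -0.04 ± 0.051 (SE, 95% interval -0.14 to 0.07, adjusted p 0.576), and 2 rows that overlap it had 0.67% and 1.1% as many counts. Fis1 (chromosome 5, 146932015 to 146947003, plus strand, MGP_C57BL6NJ_G0030640) was at 68.38, 73.60, 79.88, 72.98, 75.66 and 61.30 CPM in WT and at 71.18, 73.21, 86.05, 75.78, 78.12 and 85.67 CPM in KO, in the same order of libraries. KO-3 and KO-6 were above every WT library and the other 4 were not. Its log2 difference was 0.12 ± 0.066 (SE, 95% interval -0.02 to 0.26, adjusted p 0.133). With cardiomyocyte-marker scaling both were called higher, Fis1 by 0.44 (adjusted p 0.000211) and Mff, whose sign turned, by 0.28 (adjusted p 0.0046).

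The mitofusin genes moved in opposite directions with TMM scaling, whereas with cardiomyocyte-marker scaling Mfn2 was at 0.49 and Mfn1 at 0.02. Mfn1 (chromosome 3, 31638080 to 31693677, plus strand, MGP_C57BL6NJ_G0027557) was at 461.3, 442.5, 420.7, 455.3, 426.5 and 434.3 CPM in WT-1 to WT-6 and at 367.3, 352.8, 355.7, 331.4, 351.4 and 391.7 CPM in KO-1 to KO-6. Even KO-6, the highest of the mutants, was below WT-3, the lowest of the controls. From 440.1 ± 16.0 CPM in WT, Mfn1 fell to 358.4 ± 20.03 CPM in KO (SD, n = 6 each), by 0.30 ± 0.049 on the log2 scale (SE, adjusted p 8.84e-05), a fall that cardiomyocyte-marker scaling alone of 24 alternative settings turned, to a difference of 0.02 (adjusted p 0.811). The KO level was 0.8143 of WT with TMM (95% interval 0.7575 to 0.8755).

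Mfn2 (chromosome 4, 157077819 to 157109910, minus strand, MGP_C57BL6NJ_G0029539) was the member with the most reads. WT-1 to WT-6 were at 736.2, 668.4, 672.3, 764.3, 662.3 and 725.4 CPM, and KO-1 to KO-6 at 765.0, 790.8, 800.6, 698.0, 787.1 and 926.7 CPM. The groups overlapped through KO-4, and KO-6 stood well above the rest. The mean was 704.8 ± 42.8 CPM in WT and 794.7 ± 74.5 CPM in KO (SD, n = 6 each), 1.128-fold higher (95% interval 1.025 to 1.24), with a log2 fold change of 0.17 ± 0.065 (SE) and an adjusted p of 0.0349. Among the called members this was the least secure: the call was lost when WT-2 (0.16, adjusted p 0.0780), WT-3 (0.15, 0.0826), WT-5 (0.15, 0.0840), KO-2 (0.18, 0.0536), KO-5 (0.18, 0.0519) or KO-6 (0.12, 0.0916) was left out. It was also lost with upper quartile scaling (0.16, 0.0549) and with a block for the replicate number (0.17, 0.0613). The difference stayed above 0 in all 24 settings.

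Opa1, the inner membrane GTPase (chromosome 16, 28000580 to 28082670, plus strand, MGP_C57BL6NJ_G0023122), was at 225.0, 205.1, 223.0, 231.5, 220.9 and 226.1 CPM in WT-1 to WT-6 and at 222.9, 226.3, 245.2, 204.5, 216.2 and 212.7 CPM in KO-1 to KO-6. The KO range enclosed the WT range at both ends. The log2 difference was -0.00403 ± 0.050 (SE, adjusted p 0.956), and its 95% interval ran from -0.11 to 0.10, so that on the TMM scale a change of the size seen for Dnm1l or Mfn1 lay outside it. With cardiomyocyte-marker scaling Opa1 was instead called higher, at 0.31 (adjusted p 0.001).

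The direction of several members depended on what was taken as the common scale. TMM, DESeq2's size factors and library size gave the same 4 calls, and upper quartile scaling the same without Mfn2 and with Mief1. When the libraries were instead scaled on the 9 cardiomyocyte markers, the median log2 fold change of all rows shifted from 0.00217 to 0.32 and the share of calls in the higher direction from 50.1% to 83.0%. On that scale Dnm1l (0.68), Mfn2 (0.49), Fis1 (0.44), Opa1 (0.31) and Mff (0.28) were called higher. Mief1 was at 0.18, Mfn1 at 0.02 and Mief2 at -0.07, none of them past the test. A change of scaling moves all rows by nearly the same amount. The position of a gene relative to the median of all rows could therefore hardly change. Dnm1l and Mfn2 lay above that median on both scales, and Mief2 and Mfn1 below it, which is no separate check of their direction. The markers themselves did not move as one, from -0.99 for Atp2a2 (the calcium pump of the sarcoplasmic reticulum) to 1.05 for Mybpc3 (a myosin-binding protein).

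**Figure D2:**
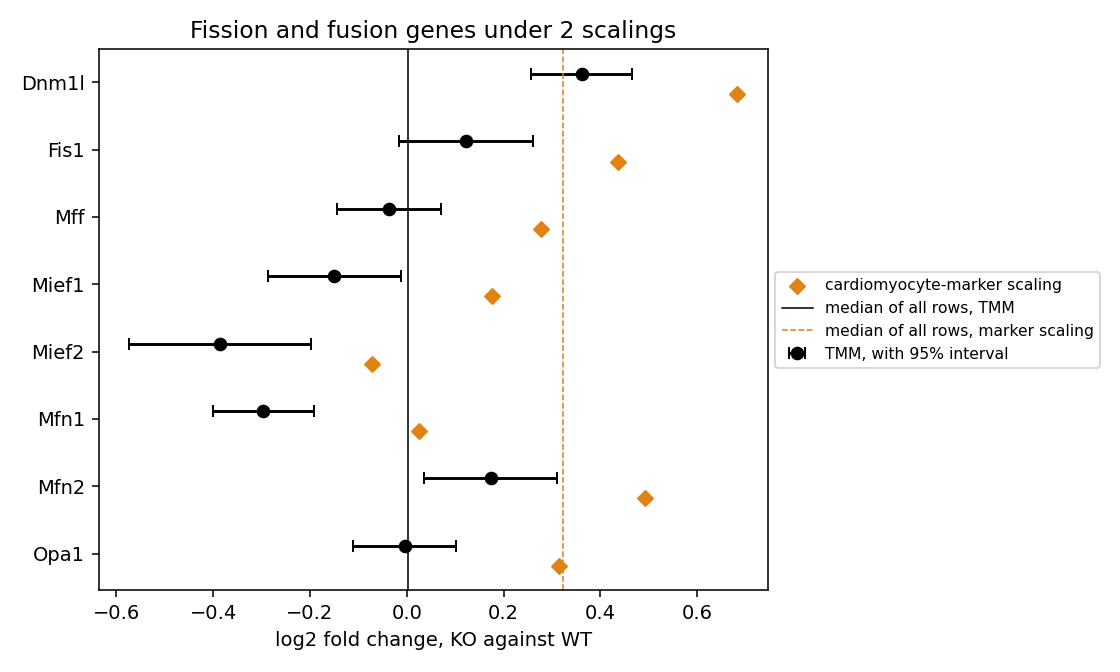
Log2 fold change of each fission and fusion gene, KO against WT, with TMM scaling (black points, bars for the 95% interval) and with scaling on 9 cardiomyocyte markers (orange diamonds); the lines give the median of all rows on each scale. The second scale moves the median from 0.00217 to 0.32 and all 8 genes with it: Mfn1 (0.02), Mff (0.28), Mief1 (0.18) and Opa1 (0.31) change sign, and Mief2 (-0.07) stays below 0.

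Ratios of 2 genes within a library need no scale. They were tested with a two-sided exact permutation test over 924 arrangements of the group labels, with Benjamini-Hochberg adjustment over 6 ratios. The smallest p this design allows is 0.00216. How many other gene pairs differ as much was not computed, while of single rows 51.1% were called. The groups did not overlap for 14.9% of all rows with KO higher and for 15.2% with KO lower. For each Mfn2 read there were 0.5958 to 0.6621 Mfn1 reads in the WT libraries and 0.4227 to 0.4801 in the KO libraries. The log2 ratio Mfn1/Mfn2 was -0.67, -0.59, -0.68, -0.75, -0.64 and -0.74 in WT-1 to WT-6 and -1.06, -1.16, -1.17, -1.07, -1.16 and -1.24 in KO-1 to KO-6. All 6 KO libraries were below all 6 WT libraries, the mean fell by 0.47 and the ratio to 0.7232 of the WT value (exact p 0.00216, adjusted 0.00649). This difference passed with any 1 library left out, at -0.48 to -0.45. So did the fall of Mfn1 by itself with TMM scaling (-0.33 to -0.27), whereas the call of Mfn2 by itself did not.

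Dnm1l against Opa1, the fission GTPase against the inner membrane fusion GTPase, also differed. With TMM scaling Dnm1l was at 0.36 and Opa1 at -0.00403, so this ratio largely restates the difference of Dnm1l. Its log2 ratio was -1.06, -0.94, -0.93, -0.92, -0.99 and -0.85 in WT-1 to WT-6 and -0.60, -0.58, -0.65, -0.50, -0.58 and -0.56 in KO-1 to KO-6. There was again no overlap, and the ratio was 1.291-fold higher in KO (log2 difference 0.37, exact p 0.00216, adjusted 0.00649), with 0.35 to 0.39 when any 1 library was left out. Dnm1l against Mfn2, both of which were called higher, differed less, by 0.19 (WT -2.62 ± 0.093, KO -2.42 ± 0.139, SD, n = 6 each; exact p 0.0238, adjusted 0.0312), and KO-6 at -2.68 lay below 5 of the WT libraries. That call was lost when WT-1, WT-2, KO-3, KO-4 or KO-5 was left out (0.16 to 0.20, adjusted p 0.0519 to 0.0571).

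Within the DRP1 receptors, Fis1/Mff was 0.16 higher on the log2 scale in KO (WT -0.92 ± 0.117, KO -0.76 ± 0.096, SD, n = 6 each; exact p 0.0260, adjusted 0.0312), with overlapping groups. The call was lost when WT-1, WT-2, WT-6, KO-4, KO-5 or KO-6 was left out (0.13 to 0.17, adjusted p 0.0519 to 0.0597). The 2 MID genes did not shift against each other by the test: Mief1/Mief2 was -0.40 ± 0.145 in WT and -0.16 ± 0.239 in KO (SD, n = 6 each; exact and adjusted p 0.0758), and this passed when KO-6 was left out (0.30, adjusted p 0.0286).

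**Figure D3:**
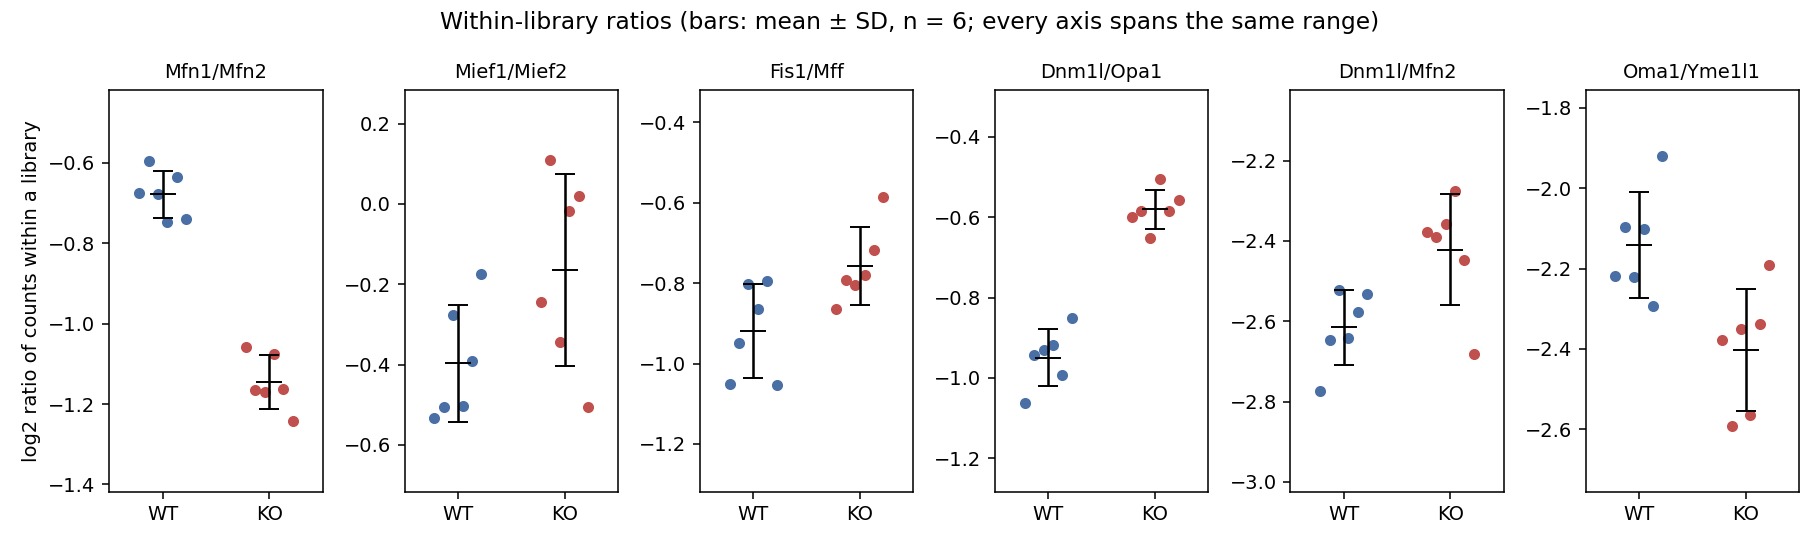
Log2 ratio of the counts of 2 genes within each WT (blue) and KO (red) library for the 6 ratios tested, with bars for the mean ± SD; every vertical axis spans the same range and none starts at 0. Mfn1/Mfn2 and Dnm1l/Opa1 separate the groups without overlap, by -0.47 and 0.37, and the other 4 ratios overlap. How many other gene pairs separate the groups was not computed.

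Levels were compared between genes only per length, in the FPKM values of the authors (fragments per length of the gene and per depth of the library). In WT the order of the means was Mfn1 (329.5 ± 14.2 FPKM), Mfn2 (291.8 ± 19.0), Fis1 (98.1 ± 7.60), Mff (93.0 ± 4.49), Opa1 (74.8 ± 2.87), Dnm1l (32.1 ± 2.39), Mief2 (27.5 ± 3.05) and Mief1 (6.39 ± 0.237, SD, n = 6 each). The ranges of Mfn1 and Mfn2, of Fis1 and Mff, and of Dnm1l and Mief2 overlapped, and the other neighbours in that order did not. In KO hearts Mfn2 (328.8 ± 25.1 FPKM) stood before Mfn1 (268.4 ± 12.2) without overlap, and Dnm1l (41.3 ± 1.09) was clear of Mief2 (21.0 ± 2.28), whereas the other positions were unchanged and Fis1 and Mff still overlapped.

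The order of several members rested on the length used. The deposited FPKM imply a length of 1334 bases for Mfn1 and 2413 for Mfn2, while the length column of the same table gives 4562 and 4341. With that column, an alternative chosen after seeing the data, Mfn2 was first in both groups, at 162.2 ± 10.6 FPKM in WT against 96.4 ± 4.16 for Mfn1, and at 182.8 ± 14.0 against 78.5 ± 3.58 in KO (SD, n = 6 each). Other neighbours changed places too. In WT, Opa1 (35.6 FPKM) then stood before Mff (34.6). In KO, Fis1 (82.5) stood before Mfn1 (78.5), and Dnm1l (36.3) before Opa1 (35.5) and Mff (33.7), with overlapping ranges between each of these neighbours. Of the FPKM of both mitofusins, Mfn1 made up 53.1% ± 1.02 in WT and 45.0% ± 1.17 in KO as deposited, and 37.3% ± 0.956 and 30.1% ± 0.994 with the length column (SD, n = 6 each). Of the FPKM of the 4 DRP1 receptors in WT, Fis1 made up 43.6% as deposited and 59.0% with the length column, and Mff 41.4% and 27.0%. Mief2 made up 12.2% in WT and 9.37% in KO as deposited, and 10.2% and 7.65% with the length column. The change of the ratio Mfn1/Mfn2 between WT and KO does not contain the length and is the same either way.

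For each member the non-member gene with the most similar profile was sought among 10242 annotated rows, as the smallest root mean square difference of log2 CPM over the 12 libraries, each profile centred on its own mean. For Dnm1l this was Copa, a subunit of the COPI coat of Golgi vesicles (difference 0.0456, against a spread of 0.194 of Dnm1l about its own mean), for Mfn1 it was Cnst (0.0458 against 0.161), for Mfn2 Sgta (0.0429 against 0.133) and for Mief2 Clip1, a microtubule plus-end protein (0.0928 against 0.246). For the members that did not pass, the nearest were Bub3 to Fis1 (0.0611 against 0.128), Hbp1 to Mff (0.0480 against 0.0756), Xrn2 to Mief1 (0.0640 against 0.118) and Gpbp1 to Opa1 (0.0425 against 0.0695). In these members the difference was a larger part of the gene's own spread than in those that passed. That spread includes the distance between WT and KO, so it tends to be larger in called members, and no conclusion is drawn from the contrast.

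The other genes of mitochondrial dynamics were read from 8 lists, of which 65 genes were tested: 23 were higher in KO, 20 lower and 22 did not pass, with a median log2 fold change of 0.02, beside 0.00217 for all rows. Of all rows 51.1% were called, 25.6% higher and 25.5% lower. With cardiomyocyte-marker scaling 42 were higher and 2 lower (Chchd3 and Mtx1), at a median of 0.34, while 48.0% of all rows were higher and 9.87% lower at a median of 0.32. On that scale 11 of the 43 called genes changed sign, all of them lower with TMM. None of the 43 changed sign with DESeq2's size factors, library size or upper quartile scaling.

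Proteases and scaffolds that act on OPA1 went both ways, 3 of 8 higher, 4 lower and 1 not passed, beside 25.6% of all rows higher and 25.5% lower. Afg3l2, a subunit of the inner membrane m-AAA protease, rose from 188.6 ± 12.5 to 293.0 ± 30.8 CPM (log2 fold change 0.64, adjusted p 7.64e-07). The prohibitins Phb2 (228.7 ± 7.23 to 180.5 ± 6.28 CPM, -0.34, adjusted p 4.24e-06) and Phb (166.5 ± 6.05 to 133.6 ± 3.52 CPM, -0.32, adjusted p 7.05e-06), ring-forming scaffolds of the inner membrane, and Stoml2 (-0.27, adjusted p 0.000238) were lower. With cardiomyocyte-marker scaling, however, Phb was at 0.00427, Phb2 at -0.02 and Stoml2 at 0.06. Of the 2 proteases that cut OPA1 directly, Oma1 fell from 24.1 ± 1.63 to 20.8 ± 1.99 CPM (-0.21, adjusted p 0.0207; 0.11 with cardiomyocyte-marker scaling) and Yme1l1 was at 106.2 ± 4.66 and 109.7 ± 7.41 CPM (0.05, adjusted p 0.462; SD, n = 6 each throughout). The ratio Oma1/Yme1l1, which needs no scale, was lower in KO by 0.26 on the log2 scale (WT -2.14 ± 0.133, KO -2.40 ± 0.151; exact p 0.00866, adjusted 0.0173). Of the KO libraries 5 were below the whole WT range and KO-6 was within it, and the difference passed with any 1 library left out.

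The MICOS complex, which shapes the junctions of the cristae and to which OPA1 is bound, had no higher member with TMM scaling. Of its 7 genes 5 were lower and 2 did not pass, with a median of -0.18, where 25.5% of all rows were lower. Chchd3 fell from 452.9 ± 24.2 to 282.3 ± 20.1 CPM (-0.68, adjusted p 3.82e-08), and it remained lower with cardiomyocyte-marker scaling (-0.37, adjusted p 0.000212). Micos10 (332.5 ± 14.0 to 252.9 ± 23.2 CPM, -0.39, adjusted p 2.78e-05), Apoo (-0.33, adjusted p 0.000204) and Micos13 (-0.16, adjusted p 0.0101) were also lower, but with cardiomyocyte-marker scaling none of the 3 passed, at -0.08, -0.02 and 0.17. The list then held 2 higher and 1 lower member at a median of 0.14.

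Of the other fission factors 7 of 10 were tested, with 1 higher, 3 lower and 3 not passed, beside 25.6% of all rows higher and 25.5% lower. Dnm2, a dynamin of endocytosis also placed at late steps of fission, rose from 83.8 ± 3.96 to 105.5 ± 7.15 CPM (0.33, adjusted p 4.81e-05), but overlapping rows, the largest of them Tmed1, had up to 32.1% as many counts. Mtfp1 (-0.24, adjusted p 0.0103), an inner membrane protein, Mtfr1 (-0.21, adjusted p 0.00533) and Slc25a46 (-0.14, adjusted p 0.0140) were lower, and with cardiomyocyte-marker scaling these 3 were at 0.07, 0.11 and 0.18. Of the other fusion factors, Miga1 (-0.37, adjusted p 0.000446) and Mtch2 (-0.12, adjusted p 0.0209) were lower and 1 did not pass; the marker scale put them at -0.05 and 0.20.

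The kinases, phosphatases and anchors of DRP1 gave 10 higher genes of 19 tested, 1 lower and 8 that did not pass, at a median of 0.14, beside 25.6% of all rows higher and 25.5% lower. With cardiomyocyte-marker scaling 16 were higher and none lower, beside 48.0% and 9.87% of all rows. Map2k1, a kinase of the MAP kinase cascade, rose from 52.5 ± 3.79 to 81.6 ± 7.71 CPM (0.64, adjusted p 5.14e-07), and overlapping rows had up to 8.13% as many counts. Prkacb, a catalytic subunit of protein kinase A (78.6 ± 1.90 to 108.9 ± 5.89 CPM, 0.47, adjusted p 2.15e-07), Camk2d, the main CaM kinase II of the heart (0.38, adjusted p 5.01e-06), and Prkaa2, a catalytic subunit of AMPK (0.35, adjusted p 7.38e-05), were also higher. Mapk3, a kinase further down that cascade, did not pass and stood at 71.4 ± 4.62 and 70.8 ± 2.90 CPM (-0.01, adjusted p 0.853; 0.31 with cardiomyocyte-marker scaling). Of the ubiquitin and SUMO enzymes, Senp5 (0.34, adjusted p 0.0108) and Huwe1 (0.21, adjusted p 0.000932) were higher. Mul1 (-0.15, adjusted p 0.0107, and 0.17 on the marker scale) was lower and 5 of 8 did not pass. With cardiomyocyte-marker scaling 7 of these 8 enzymes were higher and none lower, beside the same 48.0% and 9.87% of all rows.

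All 4 genes of mitochondrial transport along microtubules passed the test, as did 51.1% of all rows. Trak2, an adaptor that links mitochondria to motor proteins, rose from 156.3 ± 14.5 to 334.5 ± 24.9 CPM, the largest difference in the 8 lists (1.10, adjusted p 1.20e-09). It was the 1 gene of the lists past the stricter threshold. The overlapping row Stradb had 22.1% as many counts as Trak2. Trak1 (0.38, adjusted p 5.31e-06) and Rhot1 (0.22, adjusted p 0.00136) were higher too, while Rhot2, which like Rhot1 encodes a Miro GTPase of the outer membrane, was lower (63.7 ± 5.38 to 48.4 ± 3.70 CPM, -0.39, adjusted p 6.63e-05) and, with cardiomyocyte-marker scaling, at -0.08 without passing. Of the outer membrane channel and import genes 4 of 9 were higher, 3 lower and 2 did not pass, beside 25.6% of all rows higher and 25.5% lower. Vdac2, a porin (0.27, adjusted p 0.000415), and Tomm70a, an import receptor (0.25, adjusted p 0.000271), were higher, and Samm50, the core of the sorting and assembly machinery (285.8 ± 11.8 to 208.4 ± 11.6 CPM, -0.46, adjusted p 7.81e-07), and Mtx1 (-0.55, adjusted p 1.28e-05) were lower, at -0.14 and -0.24 on the marker scale. Mtx1 overlaps Thbs3, whose row held 79.8% as many counts, so its value is uncertain.

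**Figure D4:**
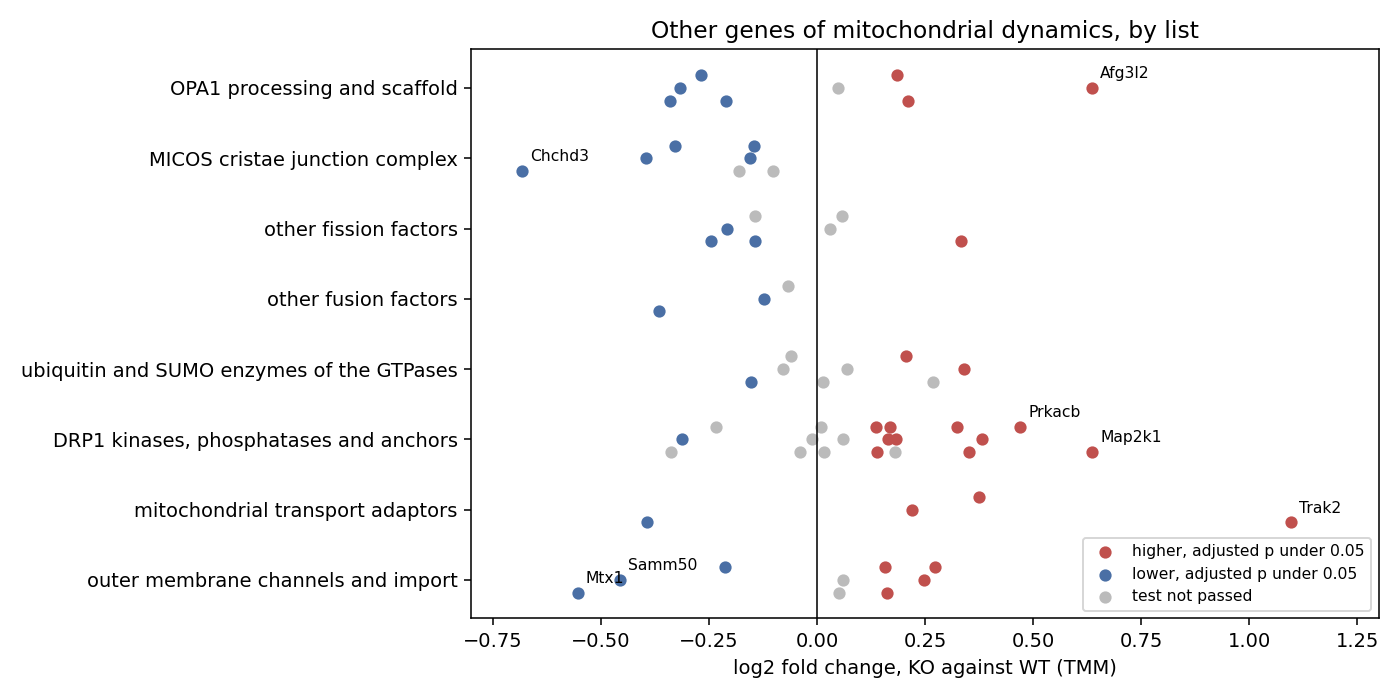
Log2 fold change, KO against WT with TMM scaling, of the 65 tested genes in 8 lists around the fission and fusion machinery (red, higher; blue, lower; grey, test not passed; vertical offsets within a list only separate points). Trak2 lies farthest to the right and Chchd3 farthest to the left; with cardiomyocyte-marker scaling the median of these genes moves from 0.02 to 0.34, and 11 of the 20 lower genes change sign.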

How the data were processed

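Poly(A) RNA of the ventricular wall was analysed from 6 WT and 6 KO mice, grouped by the sample labels. The authors aligned the reads (HISAT2 2.0.5 and mm10 are named in the submitters' processing notes), counted them per gene with HTSeq and deposited raw counts and FPKM values in 1 table. Its gene names (MGP_C57BL6NJ) belong to the strain assembly C57BL/6NJ. The strand setting is not given in the sources used here. The authors' group means of scaled counts (a signal), fold changes and p-values were deposited too and were not used. P-values set the difference between the groups against the spread between samples within them, which may in part be technical.

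Counts were analysed with edgeR 4.0.16 in R 4.3.3 (filterByExpr, TMM, robust quasi-likelihood test, Benjamini-Hochberg adjustment over 17155 rows). The fit was tested on simulated data, where it recovered 36 of 50 genes set at a log2 fold change of 0.5 and 40 of 50 set at -0.5. At 1 and at -1 it recovered 50 of 50. All member changes with TMM were smaller than 0.5 in size. Near-identical transcripts were sought with minimap2. The members and lists were chosen with earlier results of these data known. Named were all members, up to 4 called genes of largest change per list, Oma1, Yme1l1, Mapk3, Sdhaf4 and the nearest profile of each member; 1 further gene of that rule is not reported here. Alternatives were other scalings, DESeq2 1.42.0, limma 3.58.1 (voom, and log2(FPKM + 1)), other filters, a replicate block and left-out libraries. FPKM with the length column was added after seeing the data. Unannotated loci made up 2590 rows.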

Additional observations from a re-analysis of the deposited data

Results flagged for a closer look

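Libraries far from the other 5 of their group were sought in 96 groups of values (members, ratios, Sdhaf4 and the named genes of the lists), and 7 were found, against 4.8 that chance gives at this threshold. Mff was at 150.4 CPM in KO-3 and at 126.8 to 130.0 CPM in the other KO libraries. KO-3 was also the high library for Micos10 (297.8 CPM, others 231.2 to 250.9), Apoo (97.7 CPM, others 75.7 to 82.4), Rhot1 (104.0 CPM, others 84.1 to 91.4) and Mtx1 (15.0 CPM, others 12.6 to 13.3). For Micos10, Apoo and Mtx1, which were lower in KO with TMM scaling, KO-3 was thus the library nearest to WT, and for Rhot1, which was higher, the one farthest from it. Sdhaf4 was at 2.73 CPM in KO-1, against 2.25 to 2.42 CPM in the other KO libraries, and Oma1 at 27.1 CPM in WT-6, against 22.4 to 24.2 CPM in the other WT libraries. Leaving out KO-3 and WT-6 together changed no member's call.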

How the results depend on the processing

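The calls of Dnm1l, Mief2 and Mfn1 held, at an adjusted p under 0.05, under every alternative of scaling, test, filter, block or left-out library except cardiomyocyte-marker scaling, which kept Dnm1l alone of the 3. With that scaling the sign turned for Mff (0.28, adjusted p 0.0046), Mief1 (0.18, adjusted p 0.155), Mfn1 (0.0246, adjusted p 0.811) and Opa1 (0.31, adjusted p 0.001); 9931 rows were called, against 8767 with TMM. With TMM, Opa1 ranged from -0.0409 to 0.0191 with 1 library left out and was above 0 without WT-4, KO-4, KO-5 or KO-6. At the stricter threshold 1755 rows, 0 members and 1 gene of the other lists (Trak2) were called by edgeR; at an adjusted p under 0.05 DESeq2 called 9622 rows.

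Same-numbered libraries correlated at -0.162 to 0.0243 in their deviations, none correlated best with its own number, and the replicate block was read only as an alternative: 8233 rows were called and Mfn2 was not (0.17, adjusted p 0.0613). In the sign-flip form of the replicate block, which allows few outcomes, no ratio passed: Mfn1/Mfn2 -0.47, Fis1/Mff 0.16, Dnm1l/Opa1 0.37, Dnm1l/Mfn2 0.19 and Oma1/Yme1l1 -0.26, at adjusted p 0.0625, 0.0938, 0.0625, 0.113 and 0.0625. With 1 library left out the ratios ranged from -0.48 to -0.45, 0.13 to 0.19, 0.35 to 0.39, 0.16 to 0.24 and -0.30 to -0.22 in that order, and Mief1/Mief2 from 0.18 to 0.30. The log2 ratio of mean FPKM of Mfn1 over Mfn2 in WT was 0.18 as deposited and -0.75 with the length column. The cause of these changes was not tested. Each member had at least 523 reads in every library, and whether depth limits any call was not tested.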
